A study of Drosophila melanogaster with 4 samples.

Results

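The centromere-proximal 2 Mb of chromosome arm 3L of Drosophila melanogaster hold the place where gene-rich euchromatin passes into the repeat-rich heterochromatin around the centromere. The mark mapped here is histone H3 dimethylated at lysine 9 (H3K9me2), measured by chromatin immunoprecipitation and sequencing (ChIP-seq) in nuclei from adult heads of the wild-type strain Oregon-R, at a stage labelled Mixed Adult. There was a single ChIP group of 2 libraries, with 2 input libraries as their controls, and no genotype or treatment was compared. Flies were raised in population cages, and heads hold many cell types, so a region list is an average over them. Separate fly populations are not stated for the replicates, and their spread may be technical.

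The members are the enriched regions on 3L whose midpoint lies above position 22543557, in the coordinates of FlyBase Release 5, where the arm sequence is 24543557 bp long. Replicate 1 listed 98 such regions of 943 enriched regions on the arm, and replicate 2 listed 217 of 1775. The authors' combined list of the replicate set held 160 of 1876. These members were 1.56%, 1.99% and 1.49% of all enriched regions of the genome in the same order. The combined list also held 2 depleted regions on 3L, of which 0 lay in the window.

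H3K9 methylation marks nucleosomes in silenced chromatin, where it is bound by the chromodomain protein HP1a. In Drosophila the methyltransferase Su(var)3-9 acts mainly in pericentric heterochromatin, eggless (SETDB1) acts on chromosome 4 and at transposon silencing, and G9a acts in euchromatin. Genes moved next to pericentric heterochromatin are silenced in a fraction of cells, which is known as position-effect variegation, whereas some genes native to heterochromatin are active there. RpL15, a protein of the large ribosomal subunit, and vtd, the cohesin subunit Rad21, are examples known from 3L heterochromatin, and both are on 3L in the Release 6 gene table. That table is on another build than the region lists, so which genes the regions below contain was not analysed here.

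Over the whole window, enriched regions covered 68.9% of the sequence in replicate 1 and 61.1% in replicate 2 (mean 65.0% ± 5.57 SD, n = 2). The remainder of the arm was covered over 11.4% and 21.4%. The window exceeded the remainder by 57.5 percentage points in replicate 1 and by 39.7 in replicate 2 (mean 48.6 ± 12.6 SD, n = 2), which is larger than the spread between replicates. Flipping the signs of these differences in all ways, an exact two-sided permutation test, gave p = 0.5, and n = 2 allows nothing smaller. Read depth cannot be had from the lists, and counting error is therefore not given.

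The window fell into a sparsely covered distal flank and a densely covered heterochromatic part. The boundary was placed by a least-squares single change point of the covered share in 10-kb bins over the last 4 Mb of the arm. On the mean of the replicates the step lay at 23003558, which is 1540 kb from the end of the arm sequence. In replicate 1 alone it lay at 22993558, in replicate 2 at 23003558 and in the combined list at 22993558, so the lists agreed to within a single bin. The flank is therefore 460 kb long and the heterochromatic part 1540 kb.

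The flank was covered over 13.9% in replicate 1 and 24.9% in replicate 2 (mean 19.4% ± 7.76 SD, n = 2). The heterochromatic part was covered over 85.4% and 71.9% (mean 78.6% ± 9.55 SD, n = 2). The boundary was chosen on these same values, so the difference across it is a description and is given no test. The share in the flank was close to that of the arm outside the window in each replicate, 11.4% and 21.4%.

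In steps of 100 kb the covered share climbed unevenly toward the boundary and stayed high past it. The first bin of the window, 22543558–22643557, was covered over 0% in replicate 1 and 3.36% in replicate 2. The following bin had 15.2% and 29.5%, and the one after it 9.24% and 18.0%, for replicates 1 and 2. The bin at 22843558–22943557 had 24.9% and 52.2%, and the bin across the boundary, 22943558–23043557, had 53.1% and 39.9%. Beyond it the share was 68.0% and 60.8% in the first full heterochromatic bin. It was 82.5% and 65.3% in the following bin. All 15 bins wholly inside the heterochromatic part lay between 68.0% and 98.3% in replicate 1 and between 56.0% and 84.6% in replicate 2.

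**Figure D1:**
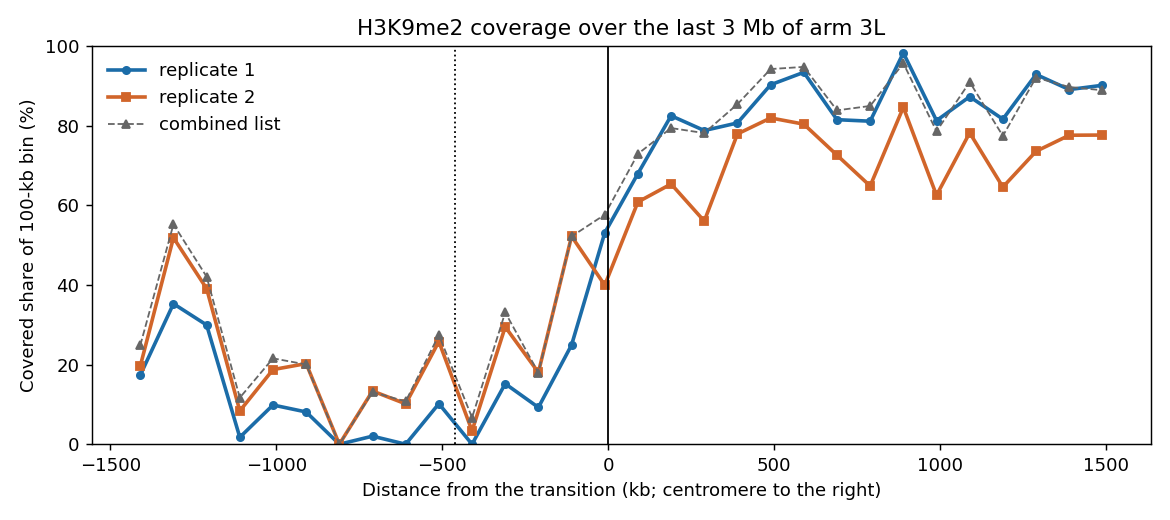
Covered share (%) of 100-kb bins over the last 3 Mb of 3L, against the distance of the bin centre from the boundary in kb, for replicate 1, replicate 2 and the authors' combined list. The solid vertical line is the boundary, and the dotted line is the distal edge of the 2-Mb window, 460 kb before it. Shares stay at 84.6% or less in replicate 2 and reach 98.3% in replicate 1 past the boundary.

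The order of the replicates turned at the boundary. Replicate 2 was covered more than replicate 1 in all 4 bins of the flank, by 11.0 percentage points over the flank as a whole. Replicate 1 was covered more in the bin across the boundary and in all 15 heterochromatic bins, by 13.5 percentage points over that part. With gaps of up to 5 kb joined, replicate 1 minus replicate 2 was 6.91 points past the boundary and -17.7 points in the flank. With the better-scoring 50% of regions it was 17.2 and -6.56 points. The turn was not particular to 3L. On 2L, replicates 1 and 2 covered 23.2% and 25.3% before the boundary in the window, and 77.6% and 68.0% beyond it. Scaffold 3LHet was covered over 83.5% and 70.2%, and 3L outside the window over 11.4% and 21.4%. With 1 library per replicate, this turn was not tested.

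At finer resolution the approach to the boundary was not a smooth slope. Its last part was a group of regions followed by an empty stretch. From the window edge to 22877276 the lists held 12 regions in replicate 1 and 22 in replicate 2 over 333.7 kb. The covered share there was 8.25% and 17.8%. Of these regions, 7 and 11 had their midpoint in the 100-kb bin at 22643558–22743557, so regions were grouped there too. The arm outside the window held 3.75 and 6.91 regions per 100 kb. From 22877277 to 22957566 lay an 80.3-kb group. It was covered over 37.0% by 5 regions in replicate 1 and over 65.4% by 15 regions in replicate 2. Its limits are region edges of replicate 2. Inside it, replicate 1 covered 0% of the 10-kb bin at 22913558–22923557. Scores in this group ran from 0.814 to 1.44 in replicate 1 and from 0.255 to 1.69 in replicate 2. The score is the authors' own value for a region, has no stated unit, and is used here to rank and describe regions within a list.

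After this group both replicate lists were empty over 37.3 kb, at 22957567–22994838. The empty stretch was 43.4 kb long in replicate 1 and 39.5 kb long in replicate 2. The combined list was not empty there, and 4 of its regions covered 18.2% of the stretch. In replicate 1 dense coverage then began within 10 kb of the boundary on its distal side, in a bin covered over 66.6%. It opened with short regions at 22994839–22999444 and 23000534–23002587, with scores of 0.691 and 0.630. Replicate 2 covered 24.2% of that bin, with a lone region at 22997082–22999502 that had a score of 0.800. Its next region began past the boundary, at 23006977, in a 10-kb bin covered over 50.3%.

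Past the boundary, regions lengthened quickly in replicate 1 and stayed broken up in replicate 2. Replicate 1 had regions of 10467 bp at 23006696–23017162, 12744 bp at 23017775–23030518 and 34268 bp at 23031069–23065336, with scores rising from 1.05 to 1.32 and 1.75. The first of these was the most distal member of at least 10 kb in replicate 1. Over the same stretch, replicate 2 listed shorter regions, the longest being 10412 bp at 23045321–23055732 with a score of 2.38. The most distal member of at least 10 kb in replicate 2 lay before the boundary, at 22877277–22887294, with a length of 10.0 kb and a score of 1.22.

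**Figure D2:**
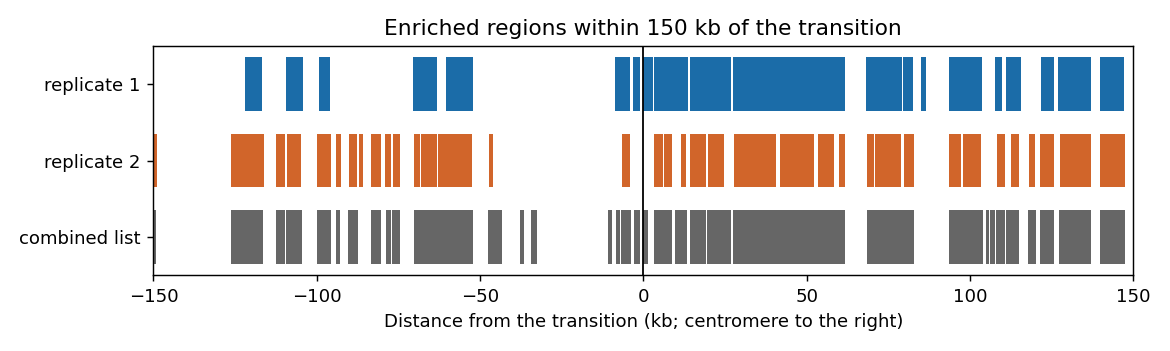
Enriched regions (bars) within 150 kb of the boundary in replicate 1, replicate 2 and the combined list, against distance from the boundary in kb, with the centromere to the right. The group of regions at the left is followed by a stretch of 37.3 kb that is empty in both replicates. Dense coverage begins within 10 kb of the boundary, on its distal side in replicate 1 and past it in replicate 2.

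Only a small number of long or strong regions lay in the flank. The longest members there were 8.27 kb in replicate 1, at 22943126–22951392, and the 10.0-kb region of replicate 2 described above. The second longest in replicate 1 was 7.38 kb, at 22933049–22940427, and in replicate 2 it was 6.08 kb, at 22945011–22951090. The third longest was the same place in both lists, at 22754266–22759908 in replicate 1 and 22754294–22760035 in replicate 2. It had the highest flank score in each list, 1.91 and 2.07, against flank medians of 0.779 and 0.748. The longest stretch of the flank without a region in either replicate was 94.5 kb, at 22567366–22661859. The combined list had regions in it, since its longest empty stretch in the flank was 47.0 kb.

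The window limit itself fell in sparsely covered sequence in every list. In replicate 1 the last region outside lay at 22525150–22527083 with a score of 1.06, and the first inside at 22661966–22663783 with a score of 0.588. In replicate 2 they lay at 22507641–22510317 with a score of 0.828 and at 22555444–22557415 with a score of 0.728. In the combined list they lay at 22525124–22527022 with a score of 0.617 and at 22543944–22545074 with a score of 0.467. No member crossed the limit, so none is counted only in part.

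Region length and score differed between the sides of the boundary. In replicate 1 the 79 heterochromatic regions had a median length of 10378 bp and the 19 flank regions 2224 bp. In replicate 2 the 179 heterochromatic regions had a median of 4015 bp and the 38 flank regions 2403 bp. Regions of at least 10 kb numbered 41 in the heterochromatic part of replicate 1 and 0 in its flank. In replicate 2 these numbers were 31 and 1. Such regions held 89.0% of the listed heterochromatic length in replicate 1 and 46.2% in replicate 2. Median scores were 1.60 in the heterochromatic part and 0.779 in the flank of replicate 1, and 1.45 and 0.748 in replicate 2. Longer members had higher scores, with Spearman's rho of 0.63 over the 98 regions of replicate 1 and 0.66 over the 217 of replicate 2. These coefficients are across regions of a single library, which share its depth. They pool both sides of the boundary, which differ in length and in score, so they do not show the relation within a side.

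**Figure D3:**
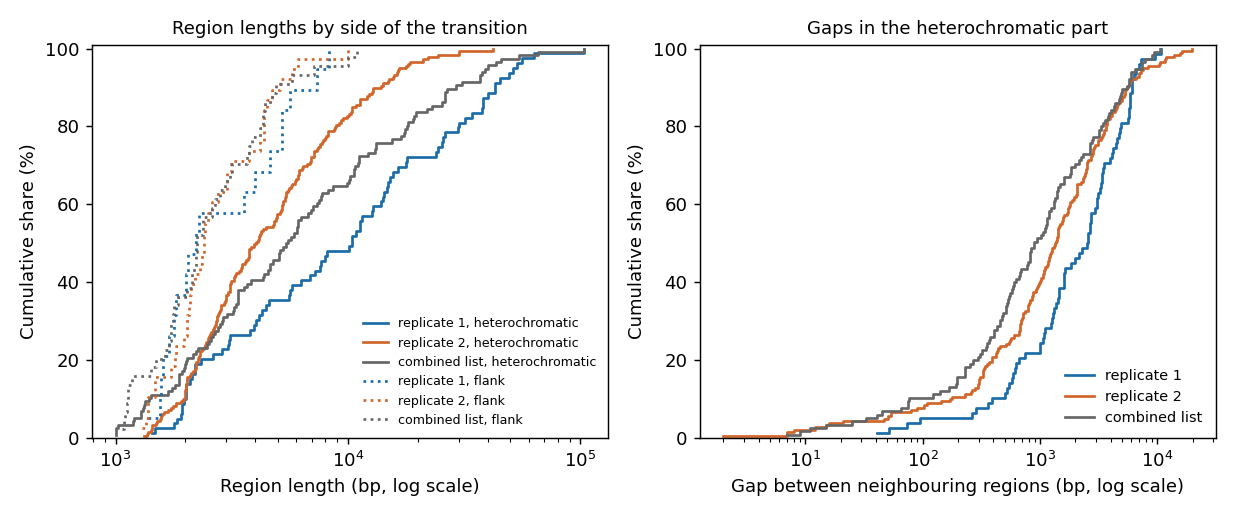
Left, cumulative share (%) of regions by length in bp (log scale) in the heterochromatic part (solid) and the flank (dotted). Right, cumulative share of gaps between neighbouring regions of the heterochromatic part by length in bp (log scale). Median region length in the heterochromatic part is 10378 bp in replicate 1 and 4015 bp in replicate 2, and the median gap is longer in replicate 1.

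Coverage and score also differed within the heterochromatic part. Its first 385 kb were covered over 76.9% in replicate 1 and 61.8% in replicate 2, less than in each of the other 3 stretches of equal length. Those stretches were covered over 87.8% to 88.9% in replicate 1 and 72.8% to 79.1% in replicate 2. Median region scores were also lowest in the first stretch, at 1.37 against 1.86 to 1.97 in the others for replicate 1. For replicate 2 they were 1.11 against 1.47 to 1.70. In 100-kb bins, the length-weighted score was 1.40 to 1.44 in the first 3 full heterochromatic bins of replicate 1. It was 2.13 in the bin at 23343558–23443557 and between 1.56 and 2.17 in every bin from there to the arm end. In replicate 2 the same 3 bins had 1.41, 1.30 and 1.55, the bin at 23343558–23443557 had 2.05, and the later bins lay between 1.46 and 1.91. The bins of the first 340 kb, singled out after their values were seen, overlapped later ones in covered share. The bin at 23143558–23243557, with 82.5% and 65.3%, was covered more than several bins nearer the centromere in each list. In replicate 2 the scores overlapped too, since 1.55 is above the lowest later value of 1.46.

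**Figure D4:**
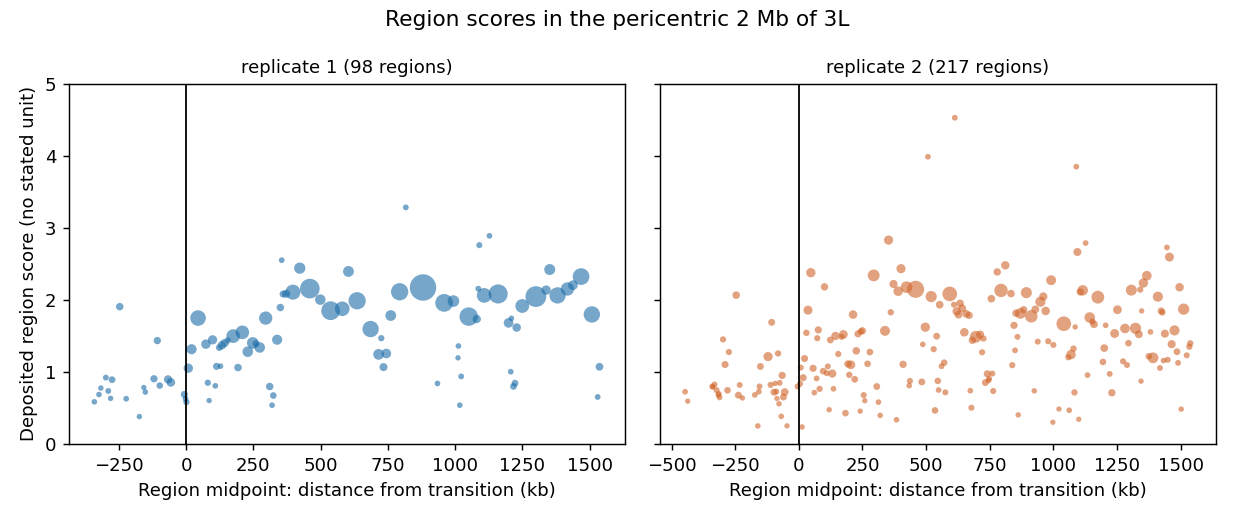
Deposited score of each member (no stated unit) against the distance of its midpoint from the boundary in kb, in replicate 1 (98 regions) and replicate 2 (217 regions). Point area grows with region length, and the vertical line is the boundary. Scores in the flank lie mostly under 1. The highest point of each replicate, 3.28 in replicate 1 and 4.53 in replicate 2, is a short region past the boundary.

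The 10 longest regions shared by both replicates were spread over the heterochromatic part, beginning from 190.2 to 1333 kb past the boundary. Shared regions are the overlap of both lists with gaps of up to 1 kb joined. There were 126 in the window with a total length of 1171 kb, 18 of them in the flank. Of the 40 shared regions of at least 10 kb, 40 lay in the heterochromatic part and 0 in the flank. The longest was 51.8 kb, at 23884283–23936087, with a mean score of 2.17 in replicate 1 and 1.87 in replicate 2. It was part of a single region in replicate 1 and of 5 regions in replicate 2.

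The next longest were 47.7 kb at 23435596–23483333, 38.3 kb at 23780444–23818743 and 36.7 kb at 23577915–23614578. Then came 32.4 kb at 24302556–24334905, 31.4 kb at 23193771–23225191 and 30.1 kb at 24029727–24059783. The last of the 10 longest were 29.5 kb at 23386174–23415697, 26.4 kb at 24336541–24362897 and 23.5 kb at 23288341–23311797. Of these regions, the one of 30.1 kb was a single region in both replicates. The one of 31.4 kb, which began 190.2 kb past the boundary, had the lowest mean scores of the 10 in both lists, at 1.46 in replicate 1 and 1.25 in replicate 2.

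Domains that replicate 1 listed as single long regions were split in replicate 2. The longest member of all was a region of 104.2 kb in replicate 1, at 23832148–23936303, with a score of 2.17. Replicate 2 covered 86.9% of it with 13 regions, whose scores ran from 0.407 to 2.10, and its longest gap there was 2.73 kb. The combined list also held a region of 104.0 kb as its longest member. The second longest region of replicate 1, 63.2 kb at 24271999–24335227, was covered over 83.0% by 6 regions. The third, 56.0 kb at 23435596–23491641, was covered over 94.6% by 6 regions and held the longest region of replicate 2, 42.0 kb at 23441316–23483333. Of the 79 heterochromatic regions of replicate 1, 42 were overlapped by 2 or more regions of replicate 2 and 11 by 5 or more. In the reverse direction, 5 of 179 were overlapped by 2 or more. These overlap counts are not given for other sequences. Replicate 2 also listed more regions over the whole genome, 10907 against 6264 in replicate 1. On scaffold 3LHet it listed 282 against 147, with median lengths of 4152 and 8097 bp. More and shorter regions in replicate 2 are therefore not particular to these domains.

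The overlap of the replicate lists differed across the boundary. The Jaccard index, which is the length in both lists as a share of the length in either, was 80.9% in the heterochromatic part, 46.3% in the flank and 78.0% in the whole window. Densely covered lists overlap more by themselves, so the index does not compare agreement between the parts. Replicate 1 shared 82.4% of its length in the heterochromatic part and 88.3% in the flank. For replicate 2 these shares were 97.8% and 49.3%. In the heterochromatic part both lists covered 1083 kb, replicate 1 alone covered 231.9 kb and replicate 2 alone 23.9 kb. In the flank the order was reversed, with 7.48 kb in replicate 1 alone and 58.0 kb in replicate 2 alone. Of the length private to replicate 1 past the boundary, 89.0% lay in regions that replicate 2 touched elsewhere, and 119.2 kb of it filled 112 gaps between neighbouring regions of replicate 2. The 3 longest private stretches of replicate 1 were 6.14 kb at 24260015–24266157, 5.35 kb at 23275339–23280688 and 4.52 kb at 23977599–23982122. Those of replicate 2 were 4.51 kb at 22763709–22768217, 4.44 kb at 22877277–22881712 and 3.55 kb at 23660833–23664379. Thus 2 of the 3 in replicate 2 lay in the flank, and all 3 in replicate 1 lay past the boundary.

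Counted by region, 281 of the 315 members of the replicate lists were touched by the other replicate, or 89.2%. In replicate 1 these were 86 of 98, and in replicate 2 they were 195 of 217. Over all regions of the genome the shares were 93.6% in replicate 1 and 60.9% in replicate 2, and over the arm outside the window 97.3% and 48.0%, against 87.8% and 89.9% in the window. An overlap of 1 bp is likely by itself where most of the sequence is covered, so these shares set nothing apart about the members. Of the 22 untouched members of replicate 2, 18 lay in the flank. There 20 of 38 regions of replicate 2 were touched, or 52.6%, which is near the 48.0% of the arm outside the window. Over the 86 touched regions of replicate 1, scores correlated with those of the overlapping regions of replicate 2 with a Pearson's r of 0.84 and a Spearman's rho of 0.86, as a description across regions.

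Most of the highest scores belonged to short regions, and several of them were listed in a single replicate. In replicate 2 the top score was 4.53, in a region of 2216 bp at 23615402–23617617, and the next was 3.99, in 1995 bp at 23509747–23511741. Neither was touched by replicate 1, where they fell in gaps of 3.31 kb and 5.80 kb. In replicate 1 the top score was 3.28, in 2126 bp at 23819331–23821456, and 0% of it was covered in replicate 2. The combined list covered 95.3%, 100% and 100% of these regions. The place at 24092236–24094870 in replicate 1 had a score of 2.76 and was listed in replicate 2 at 24092758–24094914 with a score of 3.85. The place at 24130104–24132111 had 2.89 in replicate 1 and was listed in replicate 2 at 24129629–24131644 with 2.79. The other high scores were 2.55 at 23358100–23360195 and 2.44 at 23418003–23434482 in replicate 1, and 2.83 at 23351116–23361190 in replicate 2. The regions with 2.44 and 2.83 were long, at 16.5 kb and 10.1 kb. Of the 4 heterochromatic regions of replicate 2 that replicate 1 did not touch, the remaining 2 had scores of 2.73 and 0.479. The 11 such regions of replicate 1 had scores from 0.541 to 3.28 and lengths from 1437 to 4024 bp.

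Inside the heterochromatic part, sequence outside the lists was spread over many short gaps. Replicate 1 left 14.6% of the part uncovered in 80 gaps with a median of 2421 bp. Replicate 2 left 28.1% uncovered in 180 gaps with a median of 1356.5 bp, of which 73 were shorter than 1 kb. The combined list left 14.2% uncovered in 117 gaps. Sequence in neither replicate made up 13.1%, or 201.0 kb. This was 89.4% of what replicate 1 left uncovered and 46.4% of what replicate 2 left uncovered, so most gap sequence of replicate 1 was also gap in replicate 2. In 10-kb bins, 0 of the 154 bins were empty in replicate 1 and 4 in replicate 2, whereas 75 were covered in full in replicate 1 and 20 in replicate 2.

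Long gaps common to both replicates were few. There were 13 stretches of at least 5 kb in neither list, with a total of 83.8 kb or 5.44% of the heterochromatic part. Taken alone, replicate 1 had 15 such gaps and replicate 2 had 23. Of the 13, 11 were shorter than 7 kb, and their median was 5.93 kb. The 5-kb minimum shapes these sizes, since all 79 gaps in neither list had a median of 1976 bp and 1 reached 10 kb. The median distance between neighbours was 100.4 kb, with a range from 3.04 to 279.5 kb. The first 385 kb past the boundary held 7 of them, and the other 3 stretches of 385 kb held 1, 2 and 3. The longest run without such a gap was 279.5 kb, at 23384835–23664379, which was covered over 92.0% in replicate 1 and 84.1% in replicate 2.

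The longest gap was 10.7 kb, at 23821457–23832147, and was the only gap of at least 10 kb in replicate 1. It lay between the highest-scoring and the longest member of replicate 1, the 2126-bp and 104.2-kb regions described above. In replicate 2 the gap was 15.6 kb, at 23818744–23834392, and it took in the place of the high-scoring region. The second was 7.23 kb, at 24006179–24013410, and it extended to 19.8 kb in replicate 2, at 24005220–24025038, the longest gap of that list. Replicate 1 covered 32.0% of the 19.8 kb, with the end of a long region and 4 short ones.

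Of the other long gaps, 4 began 61.8 to 156.4 kb past the boundary. They were 6.95 kb at 23090149–23097095, 6.51 kb at 23065388–23071898, 6.08 kb at 23159960–23166035 and 5.93 kb at 23150988–23156921. The last pair frames a stretch of 3.04 kb that was covered over 100% in replicate 1 and 97.1% in replicate 2. A further 3 lay about 326 to 376 kb past the boundary, with 5.90 kb at 23329879–23335781, 5.72 kb at 23366260–23371981 and 5.58 kb at 23379253–23384834. The last pair frames 7.27 kb that was covered over 99.7% and 98.2%. Nearer the centromere were gaps of 6.33 kb at 24190129–24196457, 5.87 kb at 23664380–23670252 and 5.84 kb at 24266158–24271998. Regions next to the 13 gaps had both high and low scores. Of the 26 neighbouring positions, 15 in replicate 1 and 13 in replicate 2 had a score above the median of the heterochromatic regions of that list. The neighbours ranged from 0.605 to 3.28 in replicate 1 and from 0.340 to 2.48 in replicate 2.

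The edges of these gaps agreed closely in part of the cases. Of the 26 edges of the 13 gaps, 12 lay within 200 bp of each other in the replicate lists and 14 within 500 bp, with a median difference of 308 bp. A difference of more than 2 kb was seen at 9 edges, up to 11.6 kb. The combined list had under 300 bp of enriched sequence in 9 of the 13. Replicate 2 had 8 gaps of at least 10 kb, of which replicate 1 covered between 13.7% and 64.2%. The lists give neither read coverage nor sequence, so unmarked sequence and sequence where reads cannot be placed cannot be told apart in these gaps.

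**Figure D5:**
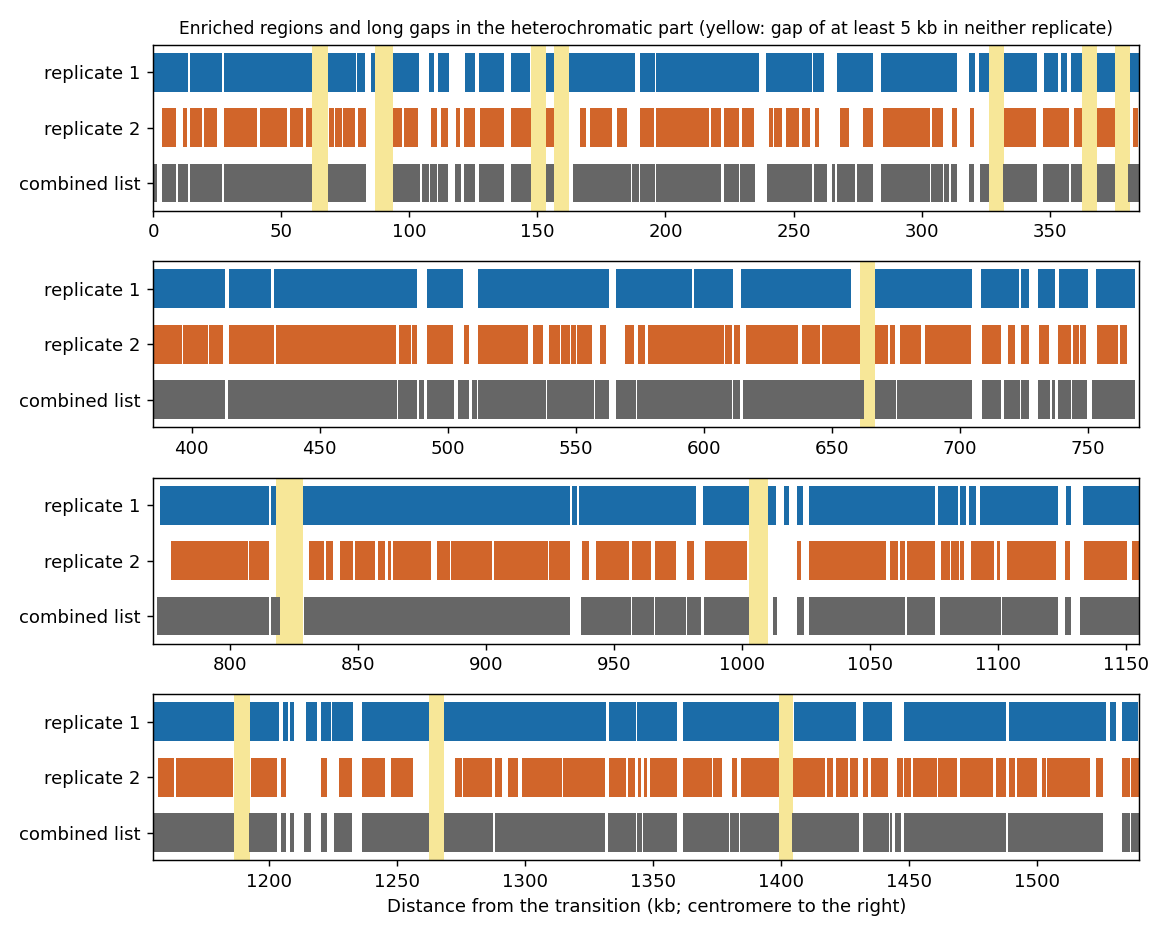
Enriched regions (bars) of the heterochromatic part in replicate 1, replicate 2 and the combined list, in 4 panels of 385 kb, against distance from the boundary in kb. Yellow marks the 13 stretches of at least 5 kb that lie in neither replicate list. The top panel, next to the boundary, holds 7 of them.

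The last regions before the end of the arm sequence reached nearly to it in every list. In replicate 1 the last region lay at 24536854–24543152 with a score of 1.07, ending 405 bp before the end. In replicate 2 it lay at 24540236–24543370 with a score of 1.40, and in the combined list at 24540220–24543448 with a score of 1.10. The final 100 kb were covered over 90.1% in replicate 1 and 77.6% in replicate 2. Within them the last 20 kb were covered less, with 85.6% and 32.3% at 24523558–24533557 and 70.5% and 62.4% at 24533558–24543557, after a 10-kb bin that both replicates covered in full. Low cover was not limited to the end, since the bin at 24443558–24453557 had 55.1% and 60.0%. In replicate 1 that bin was below both end bins.

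The combined list held all of the heterochromatic length that both replicates listed. It held 80.5% of the length private to replicate 1 and 95.3% of that private to replicate 2. It also covered 29.3 kb, or 14.6%, of the sequence in neither replicate. In the flank it covered 17.9 kb, or 5.29%, of such sequence, and 9 of its 44 flank regions were touched by neither replicate. Its flank share was 28.8% and its heterochromatic share 85.8%.

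In each replicate the heterochromatic part of 3L had a slightly higher covered share than scaffold 3LHet, mapped heterochromatin assigned to the same arm. 3LHet was covered over 83.5% in replicate 1 and 70.2% in replicate 2, against 85.4% and 71.9%. Its median scores were 2.02 and 1.56, against 1.60 and 1.45. It held 7.43 gaps of at least 5 kb per Mb in neither list, against 8.44 on the 3L part, and its longest gap was 47.1 kb against 10.7 kb. On arm 2L, the same fit placed a boundary at 22051545, with 77.6% and 68.0% covered beyond it and 13.5 such gaps per Mb. The part of the 2-Mb window before that boundary was covered over 23.2% in replicate 1 and 25.3% in replicate 2, against 13.9% and 24.9% on 3L. Each sequence is a single piece of genome, so these values are side by side and their differences were not tested.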

How the data were processed

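H3K9me2 ChIP-seq libraries from head nuclei had 2 replicates, each with an input. The submitters' processing notes name Bowtie 0.12.7, and the lists are on FlyBase Release 5, per the file headers. Caller, threshold and combining method are not given in the sources used. The authors deposited 1 region list per ChIP library and a combined list, with a score per region whose unit is not stated.

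Regions classed as depleted were left out. Covered shares are the length inside enriched regions over the length of the stretch. Gaps are stretches outside the lists. Overlap means at least 1 bp. Computation used Python 3.11.15, numpy 2.4.6 and scipy 1.17.1, with the change-point fit and interval arithmetic tested on simulated data. Depth per library is unknown, which limits how far differences in covered length can be read.

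Named regions follow a rule: the 10 longest shared regions, the 5 highest scores per replicate, the 12 longest gaps of at least 5 kb in neither list, the 3 longest private stretches and the 3 longest flank members per replicate, and the regions at the window limit and arm end. Regions next to the boundary, the longest members of each list and the framed stretches between gaps were chosen after their values were seen. The members and lists were chosen with earlier results of these data known. Alternatives were the better-scoring 50% of regions, joined gaps, other bins, windows and gap lengths, the combined list and each replicate left out. The better-scoring 50% was not taken within the window, so more than 50% of the members stayed. It kept 70 of 98 members in replicate 1, 151 of 217 in replicate 2 and 117 of 160 in the combined list.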

Additional observations from a re-analysis of the deposited data

How the results depend on the processing

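The boundary moved by at most 10 kb under the alternatives run. It was 22993558 with gaps of up to 1 kb joined, in the combined list, and with 25-kb or 50-kb bins, and leaving out each replicate gave 22993558 to 23003558. The mean covered share of the window was 58.8% with the better-scoring 50% of regions, 72.7% in the combined list, 80.6% for 1 Mb and 48.7% for 3 Mb, and leaving out each replicate gave 61.1% to 68.9%. The ratio of that share to the remainder of the arm, 4.45, was 8.50 with the better-scoring 50%, and 2.86 to 6.04 on leaving out each replicate. The heterochromatic share was 71.9% to 85.4% on leaving out each replicate. Its gaps in neither replicate depended on the length asked for, with 39 gaps or 11.0% of the part at 2 kb and 1 gap or 0.69% at 10 kb. With the better-scoring 50% of regions there were 17 gaps of at least 5 kb, holding 9.10%. On leaving out each replicate, gaps of at least 5 kb numbered 15 to 23 and held 6.50% to 13.2%. The Jaccard index in the window was 74.3% with the better-scoring 50% and 79.6% with gaps up to 1 kb joined. The excess of replicate 1 past the boundary fell to 6.91 percentage points with gaps of up to 5 kb joined, an alternative chosen after seeing the data, and kept its direction under the 3 alternatives run. In the flank replicate 1 minus replicate 2 was -11.0 points, -17.7 with gaps of up to 5 kb joined and -6.56 with the better-scoring 50%. No paired analysis was possible because the ChIP replicates form a single group and no input values entered.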

Other observations

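Sparsely covered sequence also lay distal of the window. Over the last 4 Mb of the arm, the 3 longest stretches without a region of replicate 1 all began there. They were 22096645–22289839 (193.2 kb), 22291867–22459229 (167.4 kb) and 22527084–22661965 (134.9 kb). The last of these crosses the window limit. The space between the 167.4-kb and 134.9-kb stretches lies in the bin at 22443558–22543557. That bin held 4 regions of replicate 1 and was covered over 10.2% in replicate 1 and 25.8% in replicate 2. In neither replicate, the longest such stretch was 143.4 kb, at 22123835–22267237, which ended 736.3 kb before the boundary, and the combined list left 143.5 kb empty at the same place. Chosen after their values were seen, the bins at 21643558–21743557 and 21743558–21843557, farther out on the arm, were covered over 35.3% and 29.9% in replicate 1 and 51.9% and 39.1% in replicate 2.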
